A study of Mus musculus with 3 samples.

Results

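The stefin A cluster genes Stfa1, Stfa2, Stfa3, BC100530 and Csta1 were described in single skin cells of mice with and without UV irradiation. All 5 were found by symbol, among 26989 genes listed in any of the 3 count tables. They were named as a set with their counts in these same control, UV and UV plus VD libraries known, and so were chosen by their measured levels, and every level and difference given for them is a description. Stefin A proteins are small intracellular inhibitors that block cysteine cathepsins, the lysosomal proteases also active in skin shedding and antigen processing. Humans have a single stefin A gene, CSTA, whose protein is cross-linked into the cornified envelope, the tough shell of dead surface keratinocytes. In the mouse the gene has been copied many times into a tandem cluster, and several copies are also known from bone marrow and neutrophils.

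The cells came from dissociated whole skin of C57BL/6 mice aged 9 weeks, captured with a Singleron GEXSCOPE kit, and each of the 3 groups was 1 library. The control library is unirradiated skin given saline, the UV library is irradiated skin given saline, and the UV plus VD library is irradiated skin given an agent labelled VD, taken to be the vitamin D named in the title. Dose, number of exposures, time after exposure and number of animals pooled in each library are not given in the sources used here. With no replicate library, no difference could be tested, and each comparison describes the libraries and not the conditions. Bracketed values are 95% intervals that cover counting error only.

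After filtering, 9078 control, 5451 UV and 6199 UV plus VD cells remained, with 50610389 to 79450666 counts a library and a median of 6822.5 to 9301 counts a cell. Barcodes shared between pairs of libraries numbered 37 to 66. Cells were clustered without stefin and cystatin genes, and clusters were named from marker genes. Keratinocytes, the cells of the epidermis and follicle, made up 8472 control, 3605 UV and 5765 UV plus VD cells, or 93.3%, 66.1% and 93%. Every marker on the basal, suprabasal and granular lists had counts. The largest keratinocyte cluster was suprabasal cluster 1 in control (1650 cells) and suprabasal cluster 0 in the other two libraries (597 and 982 cells). Markers of other cell types also differed among cells classed as keratinocytes: the 14 macrophage, monocyte and dendritic cell markers summed to 52.4, 194 and 43.9 CPM (counts scaled to the class total) in control, UV and UV plus VD, the 11 fibroblast markers to 42.5, 142 and 24.8, and the 12 neutrophil markers, of which 7 were listed, to 2.03, 23.3 and 2.98. Leaving out the keratinocytes in which other lineages' markers reached 1% of counts (7, 18 and 16 cells), the summed stefin A levels gave a log2 ratio of 3.22 for UV against control, as against 3.21 with them. So few cells were left out that this says nothing about foreign RNA spread thinly over the others. The neutrophil marker sum in UV keratinocytes was nearly all Mmp9 and Cxcr2, as taken up further on.

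The mouse cluster lies on chromosome 16, where the reference annotation (GENCODE M21, GRCm38) places 10 protein-coding genes from Csta1 at one end to Stfa3 at the other. Csta1 runs from 36119946 to 36131241 on the minus strand, Stfa1 from 36276951 to 36285373 on the plus strand, BC100530 from 36359382 to 36367748, Stfa2 from 36403992 to 36408457 and Stfa3 from 36450537 to 36455392, the last 3 on the minus strand. BC100530 corresponds by position to the RefSeq gene Cstdc5. These places come from the reference, since the build used for the deposited counts is unresolved. The promoters are printed to show what the members share. Stfa1, BC100530, Stfa3 and Stfa2 look alike around the RefSeq start, and in Csta1 the shared run lies nearer that start. Each stretch holds 150 bases before and 5 after the RefSeq start (GRCm38.p6), 5′ to 3′ on the gene's own strand. RefSeq and GENCODE place some starts differently. The stretches of Stfa1 and BC100530 lie wholly inside the GENCODE gene intervals given above, and those of Stfa2 and Csta1 partly, so some of this sequence may be transcribed. Capitals mark the longest run common to all 5 in windows of 300 bases around the start (ACTCAGCATTTCC) and, in 4 of them, the longest common run that holds the TATA-like letters TTTAAAA (ACCTTTAAAACCC). The stretches are chr16:36276998-36277152 for Stfa1 (plus strand) and, on the minus strand, chr16:36367566-36367720 for BC100530, chr16:36455388-36455542 for Stfa3, chr16:36408359-36408513 for Stfa2 and chr16:36131185-36131339 for Csta1.
Stfa1: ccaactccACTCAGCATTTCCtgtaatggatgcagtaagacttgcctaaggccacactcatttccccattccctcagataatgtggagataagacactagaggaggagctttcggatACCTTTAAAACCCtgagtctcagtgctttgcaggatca
BC100530: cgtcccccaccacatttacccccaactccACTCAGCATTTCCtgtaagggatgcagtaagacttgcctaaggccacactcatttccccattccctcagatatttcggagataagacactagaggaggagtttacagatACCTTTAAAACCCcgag
Stfa3: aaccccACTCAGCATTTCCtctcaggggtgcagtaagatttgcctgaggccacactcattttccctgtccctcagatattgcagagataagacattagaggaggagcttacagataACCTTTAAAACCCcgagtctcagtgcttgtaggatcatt
Stfa2: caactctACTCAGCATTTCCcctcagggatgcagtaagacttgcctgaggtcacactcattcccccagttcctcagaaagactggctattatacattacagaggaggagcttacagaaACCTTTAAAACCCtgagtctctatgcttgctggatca
Csta1: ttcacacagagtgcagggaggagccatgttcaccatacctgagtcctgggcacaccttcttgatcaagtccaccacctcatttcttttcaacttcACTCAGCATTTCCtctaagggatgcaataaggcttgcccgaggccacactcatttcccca

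The run ACTCAGCATTTCC began 142, 143, 144 and 121 bases before the start in Stfa1, Stfa2, Stfa3 and BC100530, but 55 bases before it in Csta1. It occurred, on either strand, in 10 of 32851 RefSeq promoter windows (0.0304%), those of the 5 members and of Stfa2l1, Csta3 and Cstdc3 among them. ACCTTTAAAACCC began 33, 32, 34 and 12 bases before the start in Stfa1, Stfa2, Stfa3 and BC100530 and was not in the Csta1 window. It was in 9 of the windows (0.0274%), whereas TTTAAAA alone was in 8.74%. Over the 250 bases before the start, the 4 shared 70.6% to 83.1% of alignment positions with each other and 38.5% to 48.4% with Csta1. Gaps were counted as differences here. The stretches were cut at each start, so that of Csta1 is out of step with the others, which bears on its lower values. Letters of known factor motifs were searched on both strands of the 300 bases. The AP-1 letters TGANTCA were found in Stfa3 alone among the members (7.81% of all windows), the C/EBP letters TTGCNNAA in Stfa1 and BC100530 (10.8%), the loose NF-kB letters, GGG and CC 5 bases apart, in 4 members (50.8%), and the STAT letters TTCNNNGAA in none (8.30%). The vitamin D receptor letters, a repeat of AGGTCA 3 bases apart, were also in none of the 5, and in 0.00609% of all windows. These are matches of letters only.

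Close copies make the counts of single members uncertain. The longest open reading frame of BC100530 was 98.0% identical to that of Stfa1. The other pairs were 79.3% to 84.7% identical. These values cover aligned positions, with gaps left out. Of all stretches of 50 bases in the annotated transcripts, 25.1% of those of BC100530, 22.5% of Stfa1 and 15.9% of Stfa2 also occurred unchanged in another gene of the cluster, against 0.360% for Csta1 and 0 for Stfa3. The sources used here do not state how reads that fit more than 1 copy were counted. Counts of Stfa1 and BC100530 may therefore be partly exchanged, whereas Stfa3 and Csta1 are nearly free of this. An antisense gene, Gm15845, overlaps BC100530 and had 1, 29 and 3 counts in control, UV and UV plus VD, and whether the counting used strand is not stated.

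In keratinocytes, all 5 members stood higher in UV than in control, and the size of the difference set Csta1 apart from the rest. BC100530 rested at 10.5 CPM [9.81, 11.3] in control, against 1657 [1644, 1670] in UV, Stfa3 at 5.80 [5.27, 6.37] and 324 [318, 330], and Stfa1 at 14.0 [13.2, 14.9] and 216 [211, 220]. These are 157-fold [147, 169], 55.8-fold [50.8, 61.6] and 15.3-fold [14.4, 16.4] differences. Stfa2 was nearly silent in control, with 6 counts in 2 cells, and had 507 counts in UV, or 0.0795 and 13.2 CPM, a ratio of 166 with a wide interval [75.7, 454]. Csta1, at the edge of the cluster, went from 279 CPM [275, 282] to 656 [648, 665], 2.36-fold [2.31, 2.40]. Of 12483 genes with at least 50 keratinocyte counts, 9.08% were at least 1.5-fold higher in UV after adding 1 CPM to each level, and 5.28% were lower; all 5 members were among the higher.

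With VD, Csta1 parted from the other 4. Its level was 643 CPM [637, 649] in UV plus VD, 1.02-fold below UV [1.005, 1.037] and 2.31-fold above control [2.27, 2.35]. The others lay much nearer control than UV: BC100530 at 29.1 CPM [27.8, 30.4], Stfa1 at 22.2 [21.1, 23.4], Stfa3 at 9.14 [8.43, 9.90] and Stfa2 at 0.665 [0.483, 0.893]. Against UV these were 57.0-fold lower [54.4, 59.6] for BC100530, 35.5-fold [32.7, 38.5] for Stfa3, 19.8-fold [14.6, 27.6] for Stfa2 and 9.69-fold [9.17, 10.3] for Stfa1. So 4 of 5 members were at least 1.5-fold lower in UV plus VD than in UV, a size reached by 7.62% of all genes, and Csta1 was neither higher nor lower by that measure (1.39% of genes were higher).

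The UV plus VD library did not match control exactly. BC100530 was 2.76-fold higher [2.54, 3.003] than in control, and Stfa1 and Stfa3 were each 1.58-fold higher, [1.46, 1.71] and [1.39, 1.79]. Stfa2, with 44 counts in 11 cells against 6, had a ratio of 8.36 [3.55, 24.0]; 22 of its 44 counts came from 1 cell. By the rule with 1 CPM added, 4 of 5 members, all but Stfa3, were at least 1.5-fold higher, against 3.91% of genes higher and 4.25% lower. With 10 CPM added, Stfa1 and Stfa2 also fell short of 1.5-fold, at log2 ratios of 0.42 and 0.08. The comparisons with UV share the UV library and those with control share the control library, so they are not separate evidence.

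**Figure D1:**
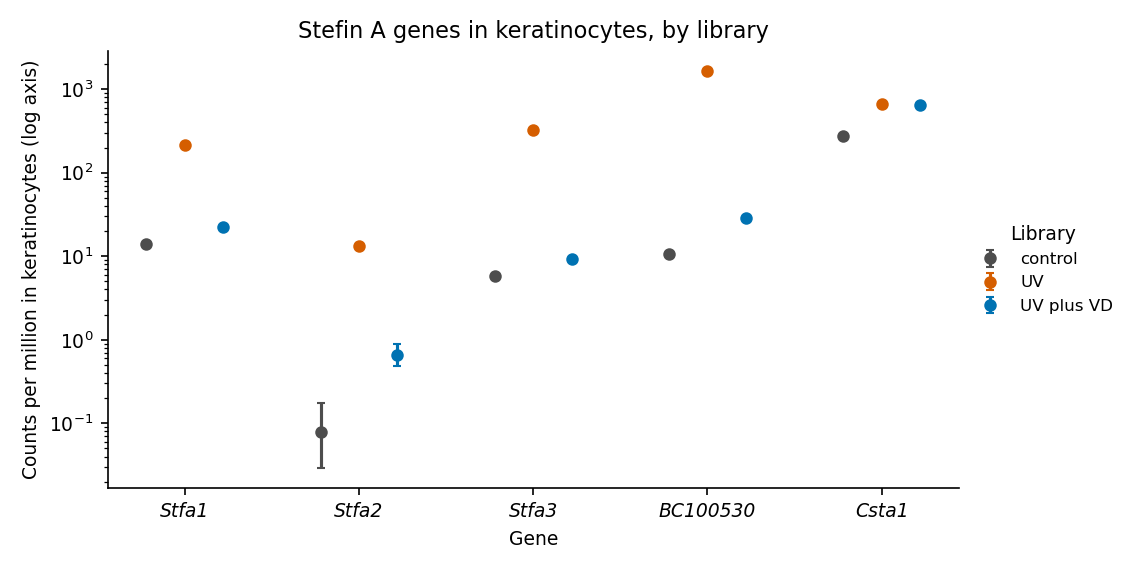
CPM of each stefin A gene in keratinocytes (log axis) for the 3 libraries, with exact 95% Poisson intervals where they are wider than the point. The UV point is far above the other two for Stfa1, Stfa2, Stfa3 and BC100530, while for Csta1 the UV and UV plus VD points lie together at 656 and 643.

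The make-up of the stefin A counts changed accordingly. Without scaling to transcript length, Csta1 gave 90.1% of the counts of the 5 genes in control keratinocytes, 22.9% in UV and 91.3% in UV plus VD. BC100530 gave 3.41%, 57.8% and 4.13%. The 5 genes together were at 309 CPM [305, 313], 2866 [2849, 2883] and 704 [698, 711]. Their sum was 9.28-fold higher in UV than in control [9.15, 9.41] and 4.07-fold lower in UV plus VD than in UV [4.03, 4.11]. For the 4 genes without Csta1, the levels were 30.5, 2210 and 61.1 CPM, 72.5-fold higher in UV than in control [69.6, 75.6] and 36.1-fold lower in UV plus VD than in UV [35.0, 37.3].

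The share of keratinocytes in which a gene was seen was also compared. Each cell was thinned to 2800 counts so that depth did not differ; keratinocytes had a median of 6952.5, 9533 and 9718 counts before that. A count of any member was present in 24.1% of control [23.1, 25.02], 66.3% of UV [64.7, 67.8] and 46.0% of UV plus VD keratinocytes [44.7, 47.3], and before thinning in 42.9%, 81.6% and 69.4%. BC100530 was seen in 2.05%, 40.4% and 5.41% of cells, Stfa3 in 1.10%, 21.1% and 2.41%, and Stfa1 in 3.05%, 17.03% and 5.15%. Before thinning these shares were 4.45%, 61.4% and 14.2% for BC100530, 2.74%, 34.0% and 5.78% for Stfa3, and 7.38%, 29.99% and 11.8% for Stfa1. Stfa2 was seen in 0 of 8472 control cells at matched depth, which allows a share of cells with a count at that depth of up to 0.0354%, in 1.61% of UV cells and in 0.104% of UV plus VD cells, or 0.0236%, 3.66% and 0.191% before thinning. Csta1 was seen in 19.5%, 37.6% and 37.8% of cells, and in 35.6%, 58.1% and 60.1% before thinning. UV fibroblasts had a median of 6162 counts a cell. Their matched share was 14.3% for BC100530, 4.24% for Stfa3, 1.86% for Stfa1 and 7.43% for Csta1. Each of these is below the share in UV keratinocytes. Whether fibroblasts transcribe these genes was not tested. Control fibroblasts (196 cells, median 4750.5 counts) gave 0 for BC100530, Stfa1 and Stfa3, which allows up to 1.53%, so the 1.10% of Stfa3 in control keratinocytes lies within that limit; Csta1 was seen in 5.61% of them. In UV plus VD fibroblasts (189 cells, median 5112 counts) Csta1 was seen in 12.7%, Stfa3 in 0.529% and BC100530 and Stfa1 in 0, which allows up to 1.59%.

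Csta1 followed the layers of the epidermis in every library. In control it was at 22.4 CPM [19.5, 25.6] in basal cells, which anchor and renew the epidermis, 78.0 [75.3, 80.6] in suprabasal cells, 48.7 [41.0, 57.4] in follicle keratinocytes and 890 [877, 903] in granular cells, the last living layer. In UV the same classes were at 38.0, 192, 201 and 1276 CPM, and in UV plus VD at 43.3, 144, 81.8 and 1237. Dividing cells, at 12.2 [5.25, 23.9], 71.3 [54.1, 92.1] and 45.7 CPM [32.8, 62.0], did not differ from basal cells beyond counting error in control and UV plus VD and lay above them in UV, where basal cells were at [30.3, 47.1]. The difference between UV and control was 1.43-fold [1.41, 1.46] in granular cells, below the 1.5-fold measure (1.67-fold [1.63, 1.71], above it, without the granular cluster 9 described further on), 2.46-fold [2.34, 2.59] in suprabasal cells, 1.70-fold [1.30, 2.20] in basal cells and 4.13-fold [3.46, 4.97] in follicle keratinocytes. With the keratinocyte classes weighted as in control, the log2 ratio of Csta1 over all keratinocytes was 0.70 in UV and 0.56 in UV plus VD against control, as against 1.24 and 1.21 unweighted. Weighted in this way, the UV plus VD level of Csta1 fell short of 1.5-fold above control.

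Stfa1, Stfa3 and BC100530 were not highest in the granular layer in control, whereas all 6 control counts of Stfa2 lay in granular cells. BC100530 was at 20.9 CPM [18.1, 24.0] in basal, 28.6 [22.8, 35.4] in follicle, 9.33 [8.44, 10.3] in suprabasal and 5.04 [4.09, 6.14] in granular cells. Stfa3 ran the same way, at 19.4 [16.7, 22.4], 16.7 [12.3, 22.1], 3.21 [2.70, 3.79] and 1.54 [1.04, 2.20]. Stfa1 was alike in basal (16.7 CPM [14.1, 19.5]), suprabasal (16.4 [15.2, 17.6]) and follicle cells (14.0 [10.02, 18.9]), whose intervals overlap, and lower in granular cells (7.82 [6.62, 9.16]). For BC100530 and Stfa3 the basal and follicle intervals overlap too, and both classes lie above the suprabasal and granular ones. The 88 dividing control cells had Stfa3 at 57.7 CPM [40.8, 79.2], above every other class, from 38 counts.

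In UV, Stfa1, Stfa3 and BC100530 were above control in every keratinocyte class, and the order of classes was different. BC100530 was at 2676 CPM [2652, 2701] in granular, 1878 [1785, 1974] in dividing, 1768 [1728, 1809] in follicle, 1086 [1042, 1130] in basal and 509 [498, 521] in suprabasal cells; the dividing and follicle intervals overlap. Stfa1 was at 323, 396, 241, 178 and 78.3 CPM and Stfa3 at 442, 589, 534, 460 and 90.5 in the same classes. For Stfa1 dividing cells were the highest class ([354, 441], against [314, 332] in granular cells), while for Stfa3 the dividing [537, 644] and follicle [512, 557] intervals overlap. The granular levels rest on a single cluster, number 9, which held 465 of the 1120 granular UV cells. Without it, in an alternative chosen after seeing the data, granular UV cells had BC100530 at 191 CPM [183, 199.7], Stfa1 at 24.5 [21.6, 27.7] and Stfa3 at 29.1 [26.0, 32.6]. Granular cells were then the lowest class for all 3 genes, and with cluster 9 suprabasal cells were. Stfa2 was highest in granular cells at 26.6 CPM [24.1, 29.1], with 447 of its 507 keratinocyte counts there, and at 3.97 [2.86, 5.37] without cluster 9, beside 6.68 in follicle cells and 1.37 to 2.46 in the other classes. The differences from control in granular cells were 531-fold [436, 654] for BC100530, 286-fold [200, 425] for Stfa3 and 41.3-fold [35.2, 48.9] for Stfa1. Without cluster 9 they were 61.2-fold [47.3, 80.7], 23.9-fold [15.7, 38.3] and 4.02-fold [3.22, 5.06]. In basal cells they were 52.0-fold [44.9, 60.4], 23.7-fold [20.2, 27.9] and 10.7-fold [8.86, 12.95], so whether the granular differences were the larger ones depended on cluster 9.

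With VD, Stfa1, Stfa3 and BC100530 were lower than in UV in basal, dividing, suprabasal, follicle and granular cells, and Stfa2 was lower in granular cells, where most of it lies. In granular cells BC100530 was at 16.97 CPM, Stfa1 at 8.31, Stfa3 at 4.40 and Stfa2 at 1.37. In basal cells they stood at 61.6, 42.5, 38.3 and 0.262 CPM, the last from 1 count. Against control, the interval of the ratio held 1 for granular Stfa1 (1.06-fold [0.866, 1.31], but 1.30-fold [1.04, 1.64] without cluster 9), follicle BC100530 (1.10-fold [0.727, 1.64]), follicle Stfa1 (1.16-fold [0.636, 2.04]) and dividing Stfa1 (1.96-fold [0.728, 6.11]). Basal cells were above control for BC100530 (2.95-fold [2.43, 3.58]), Stfa1 (2.55-fold [2.03, 3.20]) and Stfa3 (1.97-fold [1.58, 2.46]). So were granular cells for BC100530 (3.37-fold [2.71, 4.22]) and Stfa3 (2.85-fold [1.91, 4.39]), and suprabasal cells for BC100530 (3.88-fold [3.46, 4.36]), Stfa3 (2.52-fold [2.03, 3.13]) and Stfa1 (2.10-fold [1.91, 2.32]). Without cluster 9 the granular ratio was 4.96 [3.77, 6.61] for BC100530 and 1.90 [1.17, 3.19] for Stfa3. Follicle Stfa3 (3.27-fold [2.22, 4.84]) and dividing BC100530 (2.99-fold [1.68, 5.66]) were also above control. Dividing Stfa3 alone lay below it, by 2.46-fold [1.41, 4.42].

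**Figure D2:**
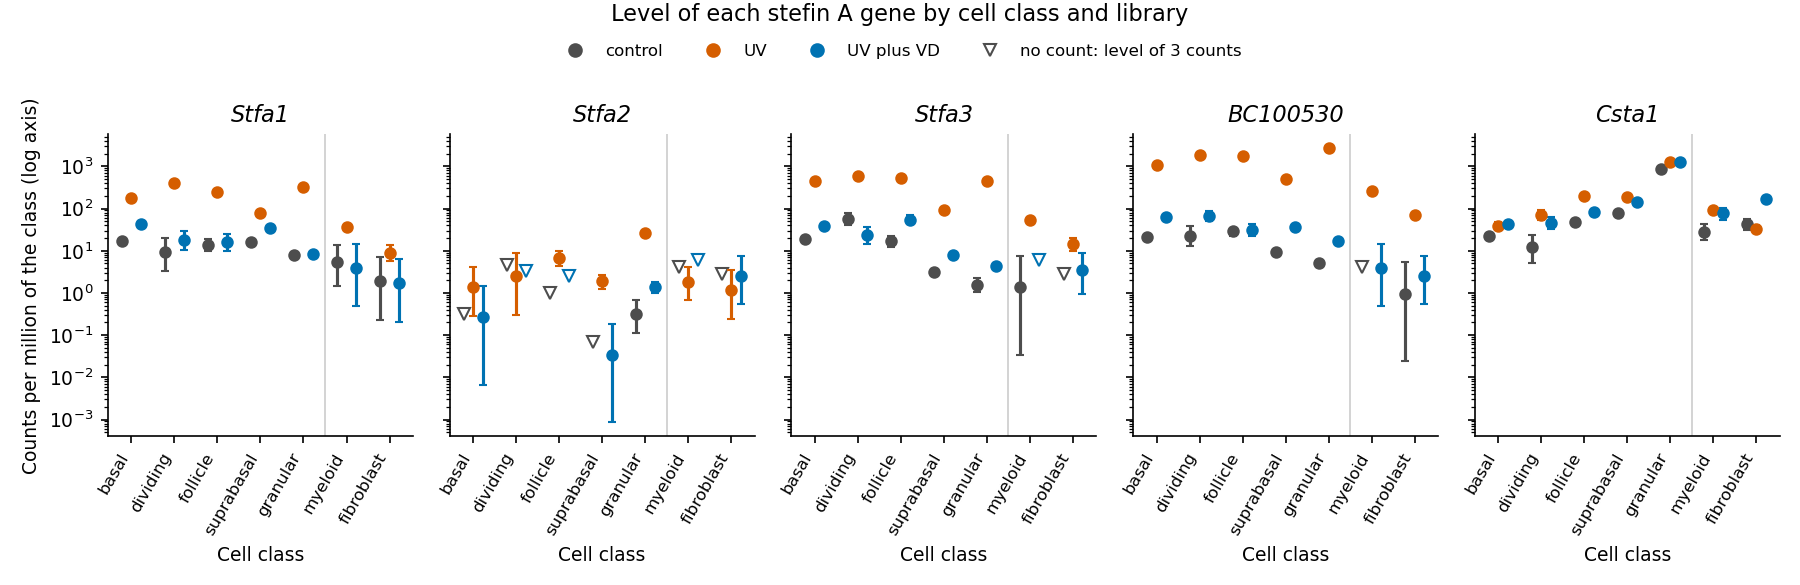
CPM of each gene (log axis) in 5 keratinocyte classes, left of the grey line, and in myeloid cells (macrophages, monocytes and dendritic cells) and fibroblasts, right of it; bars are exact 95% Poisson intervals and open triangles mark the level of 3 counts where a class had none. Csta1 peaks in granular cells in all 3 libraries (890, 1276 and 1237), whereas the UV points of Stfa1, Stfa3 and BC100530 are raised in every keratinocyte class.

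Most of the UV signal sat in 1 granular cluster, number 9, whose leading genes were Krt6b, Rptn, Flg, Slurp2, Slurp1, Il1f6 and Sprr1b. It held 68 control, 465 UV and 91 UV plus VD cells, so it comes mostly from the UV library and may be a trait of that library. In its UV cells BC100530 was at 6869 CPM [6804, 6934], Stfa3 at 1138 [1111, 1164], Stfa1 at 826 [804, 849] and Stfa2 at 64.7 [58.5, 71.3]. BC100530 was seen in 80.9% of these cells at matched depth [77.0, 84.3], with a median of 49 counts in positive cells before thinning and up to 922 in 1 cell. Cluster 9 gave 67.5% of the BC100530, 79.9% of the Stfa2, 62.5% of the Stfa1 and 57.2% of the Stfa3 counts of UV keratinocytes, but 22.3% of those of Csta1.

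Within cluster 9 the libraries still differed. In control cells of the cluster BC100530 was at 69.4 CPM, Stfa1 at 65.9 and Stfa3 at 12.5, though 1 cell gave 94.9%, 86.5% and 71.4% of those counts. In UV plus VD cells they were at 68.3, 20.9 and 76.5 CPM. BC100530 was 98.96-fold higher in UV than in control [72.4, 139] and 101-fold lower in UV plus VD than in UV [77.9, 132] in this cluster. Csta1 ran 625, 900 and 1451 CPM there, higher in UV plus VD than in UV by 1.61-fold [1.52, 1.72]. Without cluster 9, the log2 ratio of the summed genes was 2.31 for UV against control and -1.13 for UV plus VD against UV, as against 3.21 and -2.02 with it. Those of single genes without it were 5.99 for BC100530, 4.85 for Stfa3, 2.82 for Stfa1 and 5.57 for Stfa2 in UV against control, as against 7.30, 5.80, 3.94 and 7.37.

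The cells richest in Csta1 were others. Granular clusters 17 and 20, led by late cornified envelope genes such as Lce1i and by Btc, Scgb1a1 and Lor, had Csta1 at 5383, 6065 and 5222 CPM and at 5285, 6577 and 5540 CPM in control, UV and UV plus VD. In the same UV cells BC100530 was at 209 and 61.3 CPM, well under its level in basal cells. Across the keratinocyte clusters with at least 50 cells in a library, Csta1 and the sum of the other 4 ran in opposite directions in control (Pearson's r of log2 CPM -0.69 over 15 clusters, -0.91 without cluster 9) and in UV plus VD (-0.78 over 14, -0.98 without cluster 9). In UV the value was -0.29 over 13 clusters and -0.59 without cluster 9. Clusters of 1 library share its depth and were drawn from the same cells, so these values are descriptions.

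**Figure D3:**
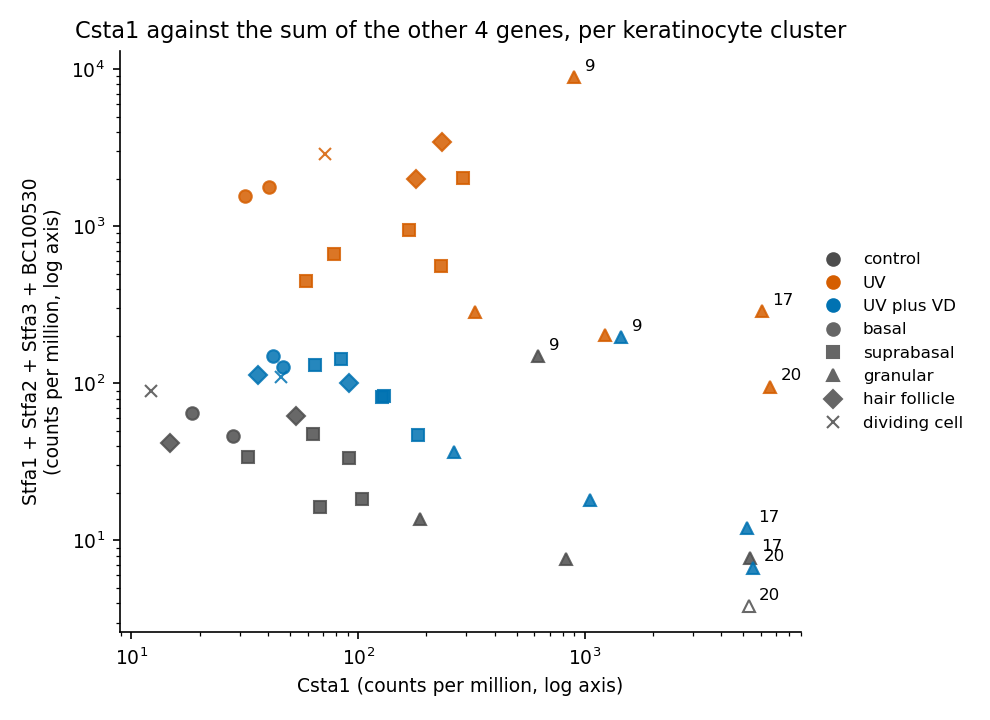
Csta1 (horizontal) against the sum of Stfa1, Stfa2, Stfa3 and BC100530 (vertical), both in CPM on log axes, for each keratinocyte cluster in each library; colour is the library, shape the class, and an open symbol a cluster at the level of 3 counts. Within a library the points slope downwards except for cluster 9, and the UV points lie above those of the other libraries.

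In single UV keratinocytes Stfa1, Stfa3 and BC100530 were often found together, and Csta1 ran nearly independently of them. At matched depth BC100530 was seen in 79.0% [75.6, 82.1] of cells with Stfa1 and 32.5% [30.9, 34.2] of those without. It was seen in 76.4% [73.2, 79.4] of cells with Stfa3 and 30.9% [29.2, 32.6] of those without. Csta1 was seen in 42.8% [40.2, 45.4] of cells with BC100530 and 34.1% [32.1, 36.2] of those without. Pearson's r over 3605 cells was 0.71 between Stfa3 and BC100530, 0.66 between Stfa1 and BC100530 and 0.59 between Stfa1 and Stfa3. With Csta1 it was 0.04 to 0.08, and between Stfa2 and the other 3 it was 0.18 to 0.24. Within the 1120 granular UV cells Csta1 was seen less often with BC100530 (64.7% [60.5, 68.7]) than without it (73.5% [69.6, 77.1]), while BC100530 was seen in 92.2% [88.1, 95.1] of Stfa1-positive and 37.0% [33.8, 40.3] of other granular cells. These granular cells include the cluster described above that came mostly from the UV library, and values without it were not computed. In suprabasal UV cells the link was weaker, with BC100530 in 60.7% of Stfa1-positive and 33.04% of other cells. Pearson's r there was 0.48 for Stfa3 and BC100530, 0.34 for Stfa1 and BC100530 and 0.29 for Stfa1 and Stfa3. In granular UV cells these values were 0.80, 0.77 and 0.71. The cells share 1 library, and the exchange of reads between close copies bears on the pair Stfa1 and BC100530 but not on Stfa3, which holds no stretch of 50 bases in common with another gene of the cluster.

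In the other libraries co-occurrence was sparse. In control, 7.75% [4.799, 11.7] of Stfa1-positive cells and 1.88% [1.59, 2.19] of the rest had BC100530, and in UV plus VD 13.1% [9.51, 17.5] and 4.99% [4.43, 5.60]. The highest r there was 0.18, between Stfa2 and Stfa3 in UV plus VD, where only 6 cells were Stfa2-positive. In UV plus VD, Csta1 was seen less often in cells with BC100530 (31.4% [26.3, 36.9]) than in those without (38.1% [36.8, 39.4]).

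**Figure D4:**
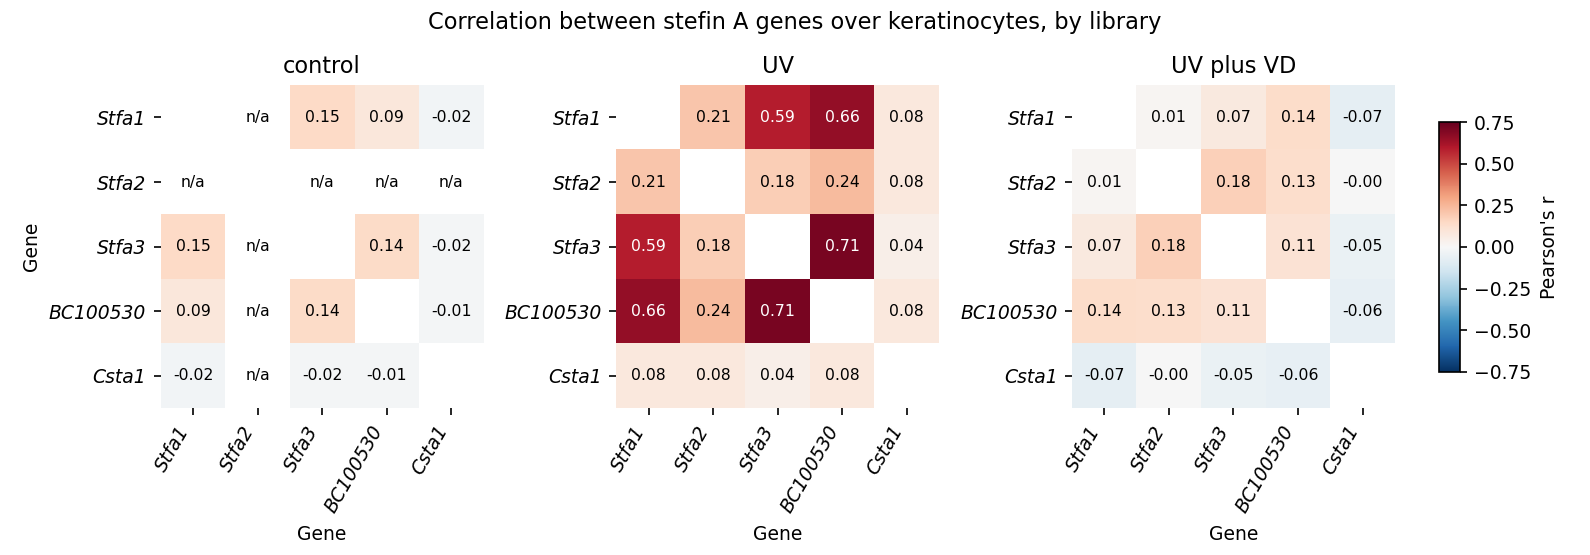
Pearson's r between each pair of stefin A genes over keratinocytes of each library, on log counts thinned to 2800 a cell; n/a marks Stfa2 in control, which had no count after thinning. Values from 0.59 to 0.71 are seen among Stfa1, Stfa3 and BC100530 in UV only, and all values with Csta1 lie near 0.

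Cells with several members were nearly confined to the UV library. At matched depth, 3 or more of the 5 genes were seen in 9 of 8472 control keratinocytes (0.106%), 504 of 3605 UV ones (14.0%) and 21 of 5765 UV plus VD ones (0.364%). All 5 were seen in 16 UV cells and in 0 cells of the other libraries. A member other than Csta1 was present without Csta1 in 4.60% of control, 28.7% of UV and 8.27% of UV plus VD keratinocytes. In cluster 9, 53.5% of UV cells, 2 of 68 control cells and 2 of 91 UV plus VD cells had 3 or more.

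**Figure D5:**
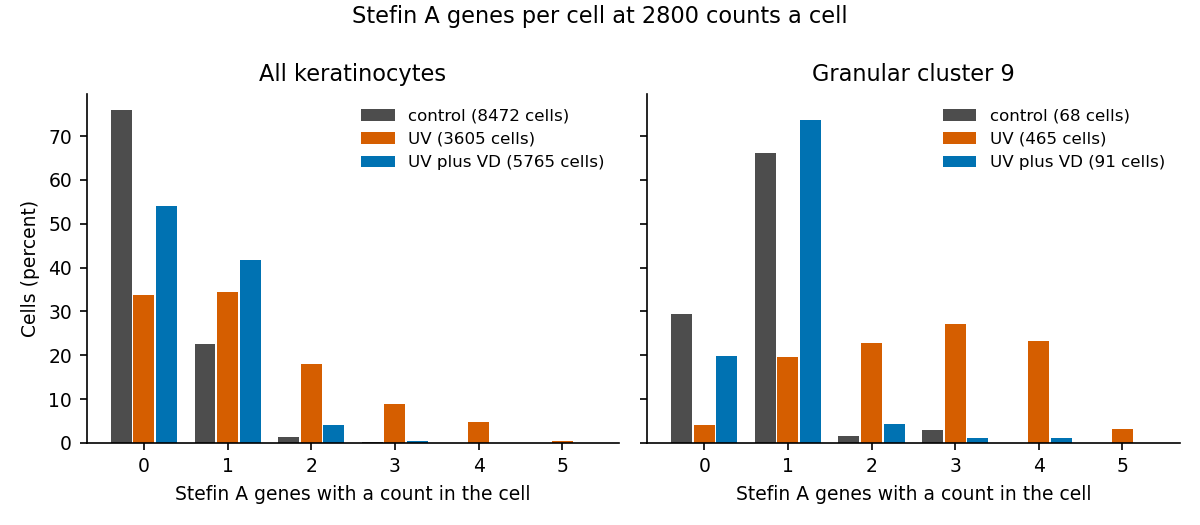
Percent of cells in which 0 to 5 of the stefin A genes had a count after thinning to 2800 counts, for all keratinocytes (left) and granular cluster 9 (right). In control and UV plus VD nearly all positive cells have 1 gene, while in UV cells of cluster 9 the commonest number is 3 (27.1%).

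Outside the keratinocytes the genes were set beside abundant keratinocyte genes in the same cells. In UV, where 95.9% to 97.1% of the counts of Stfa1, Stfa3, BC100530 and Csta1 lay in keratinocytes, macrophages, monocytes and dendritic cells had BC100530 at 264 CPM [247, 283], Stfa3 at 53.6 [45.9, 62.3], Stfa1 at 36.9 [30.6, 44.2] and Csta1 at 94.9 [84.5, 106]. These are 14.1% to 17.1% of the keratinocyte levels over the 5 genes, and 6 abundant keratinocyte genes (Krt10, Krt1, Krtdap, Sprr1a, Lgals7 and Dmkn) were at 15.5% to 20.9% of theirs in the same cells. In UV fibroblasts the members were at 4.22% to 8.99% and the 6 genes at 7.71% to 9.84%. In these UV cells of both types the members stood within or below the range of these keratinocyte genes. That range differed among cell types of 1 library: in control it was 11.1% to 20.4% in fibroblasts and 63.1% to 85.3% in T and NK cells. No profile of free RNA was made and no doublet caller was run, so the source of the counts outside keratinocytes was not tested. The 169 UV T and NK cells had BC100530 at 336 CPM [301, 374], and Stfa1, Stfa3, BC100530 and Csta1 were at 19.5% to 21.6% of their keratinocyte levels, against 38.5% to 44.4% for the 6 genes. Stfa2 was at 77.9% there, above that range, from 10 counts, 7 of them in 1 cell. In control T and NK cells (129 cells) Stfa3 was at 155%, from 9 counts, against 63.1% to 85.3% for the 6 genes. Csta1 in the 58 UV plus VD T and NK cells was at 358 CPM [309, 413], or 55.7%, against 77.1% to 91.2%. In the 84 control cells left unnamed, Stfa3, BC100530 and Stfa1 were at 161%, 114% and 94.9%, from 7, 9 and 10 counts. The 6 genes were at 35.4% to 66.0% there, Csta1 at 15.3% and Stfa2 at 0. In the 44 unnamed UV plus VD cells Stfa1 was at 123%, from 10 counts, against 53.4% to 89.5%. The other members there were at 0 to 65.9%. In the 229 unnamed UV cells the members were at 5.94% to 12.7%, against 18.9% to 26.3%. In control and UV plus VD the myeloid and fibroblast counts of Stfa1, Stfa2, Stfa3 and BC100530 were 0 to 4 each. Csta1 in UV plus VD fibroblasts was at 171 CPM [148, 196], or 26.5% of its keratinocyte level against 14.7% to 25.2% for the 6 genes, with 33.3% of its counts from 1 cell. Neutrophils, in which stefin A genes are known to be active, formed no cluster: Ly6g, Retnlg, Ngp, Ltf and Elane are not listed in any of the tables, and Csf3r, the receptor for the neutrophil growth factor, had 6, 82 and 8 counts. Among keratinocytes the summed neutrophil markers were highest in UV follicle cells (84.7 CPM) and at 20.4 CPM in UV granular cells. Over all UV keratinocytes nearly all of this sum was Mmp9 and Cxcr2, and Csf3r and Mmp8 gave very little. Cxcr2 stood higher in keratinocytes than over all cells in each library. Mmp9 stood lower in keratinocytes than over all cells in control (0.133 and 1.60 CPM) and in UV plus VD (0.0453 and 1.13 CPM). In UV its levels in keratinocytes and over all cells were nearly equal. Whether the sum holds neutrophil RNA was not tested. The part of neutrophil RNA in the stefin A levels was not tested.

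The remaining genes of the cluster were counted rarely. BC117090 had 0 counts in control, 113 in UV and 2 in UV plus VD, Gm5416 had 3, 173 and 0, and 2010005H15Rik had 9, 75 and 4. Gm5483 had 0, 6 and 5, the pseudogene Gm4758 had 0, 4 and 0, and Stfa2l1 had 0, 1 and 0. The first 3, stefin A paralogues like the members, were highest in UV, but copies this close may take reads from Stfa1 or BC100530.

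Inhibitors of the same superfamily outside the cluster were Cst6, Cstb and Cst3 among others. Cst6, which encodes cystatin M/E, an inhibitor of legumain and cathepsins in the epidermis, was at 1266, 3943 and 2219 CPM in control, UV and UV plus VD keratinocytes, 3.11-fold higher in UV than in control [3.09, 3.14]. Cstb, the ubiquitous stefin B, was at 1661, 2174 and 2044 CPM, and Cst3, the secreted cystatin C, at 1195, 1154 and 1205; both were chosen after their values were seen. Of 8 measured genes among other stefins and cystatins, 5 were at least 1.5-fold higher in UV than in control and 0 lower (median log2 ratio 0.92); 3 of these 5 are the cluster genes BC117090, Gm5416 and 2010005H15Rik, which had enough counts to be measured only because of the UV library. In UV plus VD against UV 5 were lower and 1 higher (median -0.73). With no minimum count, over 15 genes, the medians were 0.14 and -0.09, so those of the 8 say little about the list. Over all 12483 genes the counts were 1133 higher and 659 lower (median -0.04) and 174 higher and 951 lower (median 0.02).

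Genes of the cysteine cathepsins, the proteases that stefins block, were counted together with legumain. Of 11 cysteine cathepsins and legumain, 7 were at least 1.5-fold higher in UV than in control and 0 lower (median log2 ratio 0.65), and 4 were lower in UV plus VD than in UV and 0 higher (median -0.33). Over all genes 9.08% were higher in the first comparison and 7.62% lower in the second. With 10 CPM added to each level, 3 of the 11 were higher in the first and 1 lower in the second. Ctsl, the cathepsin L gene, was at 406, 622 and 845 CPM, and Ctsb, the cathepsin B gene, at 158, 259 and 180; both were chosen after their values were seen. The 4 largest differences were of rare transcripts: Ctss, a cathepsin of antigen-presenting cells, was at 0.504, 10.8 and 0.635 CPM, Ctsk, a collagen-degrading cathepsin, at 0.663, 3.30 and 0.302, Ctsz at 1.21, 3.28 and 0.922, and Ctsw, a cathepsin of cytotoxic lymphocytes, at 0.424, 1.43 and 0.302. These follow the myeloid and fibroblast marker sums among keratinocytes given above, and the part of such RNA in them was not tested. Of the aspartic and serine cathepsins, Ctsa was at 29.0, 62.4 and 46.8 CPM and Ctsd at 284, 419 and 337; 1 of these 2 passed 1.5-fold in UV against control (median 0.82).

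Broader lists, of cornified envelope and of stressed epidermis genes, were set beside the members. Over all 12483 genes, 9.08% were at least 1.5-fold higher in UV than in control and 5.28% lower. In UV plus VD against UV, 1.39% were higher and 7.62% lower. Of 40 measured genes of cornified envelope proteins and their cross-linkers, 29 were at least 1.5-fold higher in UV than in control and 0 lower (median 1.11), and 16 were lower and 2 higher in UV plus VD than in UV (median -0.21). These values cover all keratinocytes. Granular cells were 1302 of 8472 control, 1120 of 3605 UV and 1909 of 5765 UV plus VD keratinocytes. The 12 granular markers summed to 11211, 18191 and 21572 CPM over keratinocytes in that order, and to 37504, 37410 and 43733 within granular cells. The part of this mix in the list was not tested. Rptn (repetin) was at 1.78, 108 and 1.65 CPM, Sprr2a3 at 0.954, 35.8 and 1.47, and Lce3f at 1.36, 42.2 and 2.16, each near control with VD as Stfa1, Stfa3 and BC100530 were. Lce1g ran 33.3, 397 and 141 CPM. Of 19 genes of stressed epidermis, 14 were higher in UV than in control and 0 lower (median 1.45), and 12 were lower and 1 higher in UV plus VD than in UV (median -1.07). Krt6a, a keratin of wound edges and follicles, was at 23.3, 236 and 18.9 CPM, and its paralogue Krt6b at 0.0133, 145 and 3.91. The alarmin gene S100a8 was at 3.33, 47.1 and 0.846, and Il1f8, an interleukin 36 gene, at 7.54, 61.3 and 22.1. Medians are of log2 ratios after adding 1 CPM.

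The genes whose pattern was most like the sum of the 5 members were ranked over all measured genes with enough counts. Over 27 profiles of a class in a library with at least 50 cells, Pearson's r of log2 CPM was 0.86 for Gsdmc (gasdermin C), 0.84 for 2610528A11Rik, 0.80 for Krt6b, and 0.79 to 0.75 for Lce1g, Sprr2a3, Flg, Lce3f, Lce3e, Prss27 and Bglap3. Over the 3605 UV keratinocytes it was 0.42 for Glrx (glutaredoxin), 0.40 for Krt6b, 0.39 for Gsdmc and Tdh, and 0.38 to 0.37 for Casp14, Flg, Endou, Sprr2a3, 2610528A11Rik and Il1f9. Krt6b and Flg are also among the leading genes of cluster 9. Gsdmc was at 2.16, 31.3 and 4.38 CPM in control, UV and UV plus VD keratinocytes, and Flg, the filaggrin gene, at 87.9, 856 and 182.

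Csta1 alone had other neighbours. Its most similar genes over the 27 profiles were Nccrp1 (r 0.94), 2010109I03Rik (0.93), Ide (0.92), Anxa9 (0.92) and Lypd5 (0.92), and over UV keratinocytes Crct1 (0.72), Lor (0.69), which encodes the envelope protein loricrin, and Kprp (0.67). Nccrp1 is also a marker used to name granular cells. Lor was at 1312, 2486 and 3344 CPM over all keratinocytes, so like Csta1 it stayed above control with VD there. Granular cells made up a larger share of keratinocytes in UV and UV plus VD than in control, and the part of this in the Lor levels was not tested. For BC100530 the nearest over profiles were Sprr2a3 (0.87), 2610528A11Rik (0.86) and Rbx1-ps (0.83), and over UV keratinocytes Gsdmc, Tdh and Krt6b (0.47 each). Rankings for single members were made after the values of the sum were seen.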

How the data were processed

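Skin from 3 groups was profiled as 1 single-cell library each, with groups taken from the labelled treatment. The authors deposited a table per library of raw counts, whole numbers for each gene in each barcode. The submitters' processing notes list FastQC, fastp, STAR and featureCounts without versions. They also list GRCh38, a human build, although the gene symbols are those of the mouse, so the build behind the counts is unresolved. The sources used here do not say whether a count is a molecule or a read, and if reads, the intervals are too narrow.

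Barcodes under 200 genes (17, 35 and 34 in control, UV and UV plus VD) or above 20% mitochondrial counts (3, 16 and 1) were left out. Cells were clustered with scanpy 1.11.5 (2000 variable genes without stefins and cystatins, 30 components, 15 neighbours, Leiden resolution 1). A cluster was named from at least 3 of a class's markers, each in 25% of its cells. A name also needed a marker among the cluster's leading genes or 3 markers raised 1.5-fold over other cells. Classes that qualified were ranked by their markers among the leading genes, then by raised markers. Clusters with a Langerhans cell marker among the leading genes, or with more raised markers of another lineage, were left unnamed. In this way 2 clusters stayed unnamed. No doublet caller was run.

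Counts were summed per class and library and scaled to CPM here, with exact Poisson, Clopper-Pearson and conditional ratio intervals (scipy 1.17.1). The limit for a count of 0 is 3 counts. Genes with at least 50 keratinocyte counts were called at 1.5-fold after adding 1 CPM. The rule was tried on counts simulated with counting error only. That trial held no spread between libraries or animals and so says nothing about it. Named genes are the 5 members, up to 4 of each list with the largest log2 ratio of UV against control in keratinocytes, and the 10 most like the summed members among genes with at least 500 keratinocyte counts. The members, lists and markers were chosen with earlier results of these data known. Sequences are from RefSeq (GRCm38.p6), where all 5 members matched, and GENCODE M21, compared with Biopython 1.88. Alternatives were another resolution, cell filter, cell assignment, class weighting and pseudocount.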

Additional observations from a re-analysis of the deposited data

How the results depend on the processing

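The log2 ratio of the summed members in UV against control keratinocytes, 3.21 as reported, was 3.53 as a mean of CPM per cell, 3.48 without the 1% of cells with the most counts, 3.18 with totals without mitochondrial and ribosomal RNA genes, 3.17 with 10 CPM added, 2.84 with each cell assigned on its own markers, 2.75 with classes weighted as in control and 2.31 without cluster 9, an alternative chosen after seeing the data. For UV plus VD against UV, -2.02 as reported, the values in that order, without the 10 CPM setting, were -2.10, -1.95, -2.06, -1.66, -2.09 and -1.13. For UV plus VD against control, 1.19 as reported, the first 4 gave 1.43, 1.53, 1.11 and 1.16 and the weighting gave 0.65. Every direction of the sum was kept. Of 165 values for single members, 162 kept their sign, and the other 3 were of Csta1 in UV plus VD against UV. Of the 165 values, 70 lay outside the counting interval of the reported value. The log2 ratio of Stfa2 in UV against control ranged from 1.20 to 9.33, as against 7.37 reported. The share of keratinocytes with a member was 42.9%, 81.6% and 69.4% in control, UV and UV plus VD without thinning, 10.02%, 47.5% and 25.9% at 2 or more counts, and 25.5%, 64.0% and 48.5% with each cell assigned on its own. With 10 CPM added, the genes past 1.5-fold fell to 319 higher in UV against control, 195 lower in UV plus VD against UV and 184 higher in UV plus VD against control. Other stefins and cystatins then had 1 in each, cysteine cathepsins had 3 and 1 in UV against control and UV plus VD against UV, and aspartic and serine cathepsins 0 in the last, since a larger added value shrinks the ratio of low genes. No paired analysis was possible because each group is 1 library. With 1 library a group, depth limits Stfa2 in control, and no spread between animals can be given.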
